A study of Mus musculus with 18 samples.

Results

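The 9 genes described here, Nkx2-2, Nkx6-1, Nkx6-2, Dbx1, Dbx2, Olig3, Mnx1, En1 and En2, encode transcription factors that pattern the midbrain, hindbrain and spinal cord. They were chosen by name, and each was measured by the called H3K27me3 intervals that overlap its gene body extended by 2500 bp on either side. All 9 had an interval in each of 12 libraries, as had 2491 of 20661 autosomal protein-coding genes. Trimethylation of lysine 27 of histone H3 (H3K27me3) was mapped by CUT&Tag, in which an antibody directs a DNA-cutting transposase to the mark, in nuclei of the mouse medial ganglionic eminence (MGE), a ventral forebrain zone that produces cortical interneurons.

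There were 4 groups of 3 libraries, labelled as biological replicates: WT at E12.5, KO at E12.5, WT at E15.5 and KO at E15.5. The sires carried Nkx2.1-CreC/C and Ezh2F/+, and the dams carried Ai9F/F and Ezh2F/+. By this cross the WT embryos also carry the Cre, which acts where Nkx2-1 is or was expressed, and the Ai9 reporter, which marks cells that have had Cre with red fluorescence. The KO titles name Nkx2.1-Cre, Ezh2 and Ai9 without spelling out the Ezh2 alleles. Embryos of 1 genotype could be pooled, and their number per library is not given. At E12.5 the whole MGE was taken, and at E15.5 only MGE with red fluorescence, so stage and dissection cannot be told apart. The libraries are bulk nuclei: cells that never had Cre may be among them, and a mark lost in some cells cannot be told apart from a mark reduced in all. The 6 heterozygous samples of the 18 were not analysed here.

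Polycomb repressive complex 2, whose catalytic subunit is EZH2 or its paralogue EZH1, places H3K27me3 over silent developmental genes, and EZH2 is the main enzyme in dividing progenitors. In the ventral spinal cord and hindbrain, graded Sonic hedgehog sets bands of homeodomain factors along the dorsoventral axis, and pairs of these factors repress each other at the borders. The Engrailed genes act further forward, around the border of midbrain and hindbrain, and the forebrain normally keeps most of these programmes off.

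The bases just before the annotated start are shown for 5 of the genes. The called intervals covered them fully in all 12 libraries, as they did those of Nkx2-2, Mnx1 and En1. Nkx6-1 with Nkx6-2 and Dbx1 with Dbx2 are the pairs whose counts diverged, and Olig3 had the fewest CpG sites of the 8 genes with an entry in the RefSeq promoter table (GRCm38). Each is the 250 bases before the start on the gene's own strand, with CG dinucleotides in capitals. The positions are chr5:101664712-101664961 (minus strand) for Nkx6-1, chr7:139582798-139583047 (minus) for Nkx6-2, chr7:49636836-49637085 (minus) for Dbx1, chr15:95654772-95655021 (minus) for Dbx2 and chr10:19356289-19356538 (plus) for Olig3.
Nkx6-1: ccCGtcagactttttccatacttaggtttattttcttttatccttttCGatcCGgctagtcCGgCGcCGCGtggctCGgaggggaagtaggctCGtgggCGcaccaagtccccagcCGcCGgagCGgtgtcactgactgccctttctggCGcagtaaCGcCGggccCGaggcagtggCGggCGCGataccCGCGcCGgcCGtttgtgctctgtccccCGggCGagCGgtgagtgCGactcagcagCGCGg
Nkx6-2: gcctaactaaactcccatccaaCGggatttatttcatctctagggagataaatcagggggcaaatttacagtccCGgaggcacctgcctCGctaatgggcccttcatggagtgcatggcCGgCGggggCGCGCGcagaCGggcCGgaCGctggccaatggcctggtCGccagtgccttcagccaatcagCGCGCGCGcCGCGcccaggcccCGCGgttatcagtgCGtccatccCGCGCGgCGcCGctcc
Dbx1: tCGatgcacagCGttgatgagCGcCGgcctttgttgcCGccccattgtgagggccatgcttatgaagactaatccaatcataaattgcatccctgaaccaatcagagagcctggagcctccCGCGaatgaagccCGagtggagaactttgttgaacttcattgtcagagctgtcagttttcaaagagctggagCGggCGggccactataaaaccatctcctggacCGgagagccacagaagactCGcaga
Dbx2: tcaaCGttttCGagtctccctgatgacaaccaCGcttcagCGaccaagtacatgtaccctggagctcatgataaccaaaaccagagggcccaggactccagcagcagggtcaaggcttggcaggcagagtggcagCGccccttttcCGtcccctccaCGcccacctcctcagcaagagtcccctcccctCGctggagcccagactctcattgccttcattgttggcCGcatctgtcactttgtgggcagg
Olig3: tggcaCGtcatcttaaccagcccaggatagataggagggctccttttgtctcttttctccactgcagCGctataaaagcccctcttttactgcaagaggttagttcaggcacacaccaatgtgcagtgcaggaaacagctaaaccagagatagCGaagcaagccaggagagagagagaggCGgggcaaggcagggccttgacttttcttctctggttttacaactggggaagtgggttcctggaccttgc

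Nkx6-1 had 30 CG dinucleotides in this stretch and Nkx6-2 had 26, more than 92.6% and 87.8% of 16456 promoters. Dbx1 had 12, Dbx2 had 9 and Olig3 had 4. Among the others Mnx1 had 21, En1 had 19 and Nkx2-2 had 8. The Nkx2-2 entry, chr2:147186403-147186652, lies inside the gene body used for the intervals, so it belongs to another start. The dinucleotide CG, which reads the same on both strands, was present at least once in 93.0% of all promoters of this length. The median number was 14 in promoters of genes with an interval in all 12 libraries, and also 14 with an interval in 1 to 11. It was 6 in genes with none and 10 over all. Polycomb targets in mammals are often rich in CpG. The 8 genes here ranged from more CG than nearly all promoters to fewer than most, as at Olig3.

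The genes lie on 6 autosomes (GRCm38): Nkx2-2 at chr2:147176485-147195434, Nkx6-1 at chr5:101659184-101664711, En2 at chr5:28165696-28172190, Mnx1 at chr5:29473823-29478470, Nkx6-2 at chr7:139579376-139582797, Dbx1 at chr7:49631499-49636835, Dbx2 at chr15:95623563-95654771, En1 at chr1:120602487-120607991 and Olig3 at chr10:19356539-19358604. For 8 genes each library had 1 unbroken interval, which covered the gene body, short of a few bases at Nkx6-2 in E15.5 WT replicate 1. It covered the extended window whole in Nkx6-1, Dbx1, En1, En2, Mnx1 and Olig3, 99.9% or more of it in Nkx2-2, and 70.0% to 100% of it in Nkx6-2. Dbx2, the longest gene at 31209 bp, was the exception: 1 to 5 intervals covered 10.5% to 61.5% of its window, with the gene start covered in every library.

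**Figure D1:**
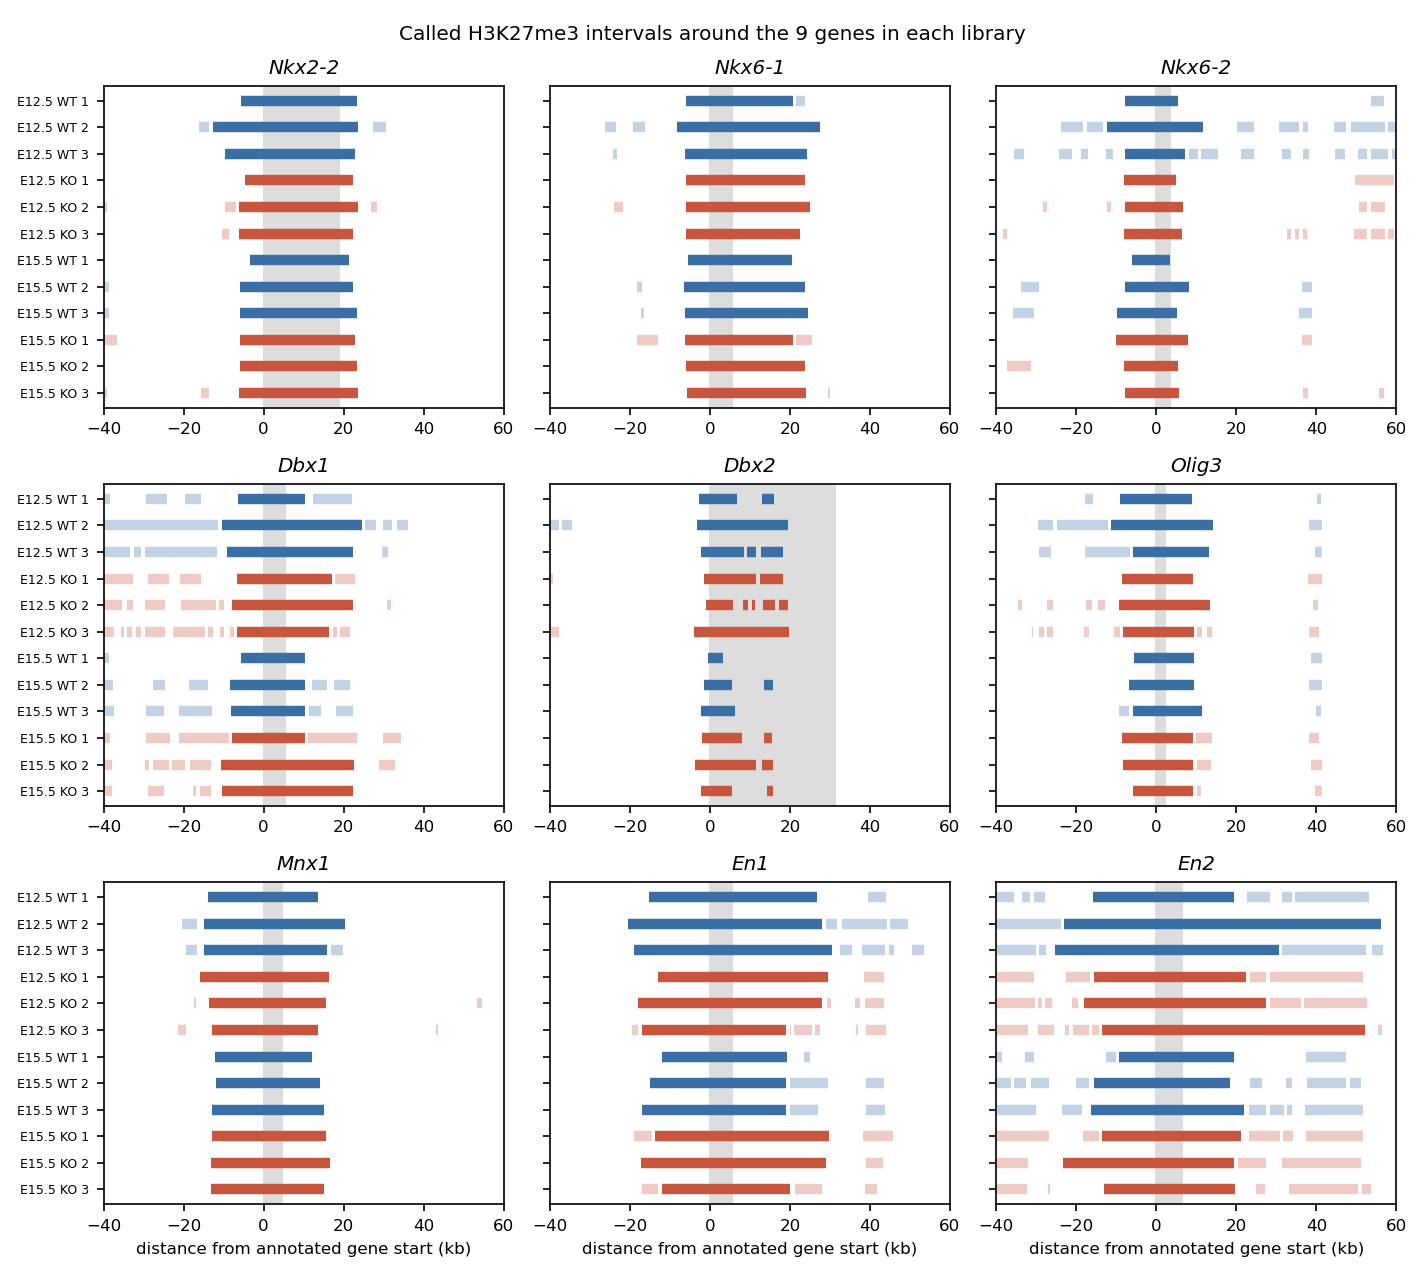
Called H3K27me3 intervals in each library (rows; blue WT, red KO) around the 9 genes, against the distance in kb from the annotated gene start along the gene's strand (along the chromosome for En2). Grey marks the gene body, solid bars the intervals counted for the gene and pale bars other intervals. 8 genes sit inside 1 interval in every library, while at Dbx2 the start is covered in every library and the rest of the gene at most in part.

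Libraries differed in depth, so counts were scaled. The depth, the mean count per 200 bp window recovered from the deposited scores, ranged from 0.0751 to 0.698, and counts in intervals summed to 573838 to 6846250 per library. A normalised count is the count of a gene's intervals divided by its library's depth and multiplied by the average depth; raw counts of the 9 genes ran from 106 (Dbx2, E15.5 WT replicate 1) to 27991 (En2, E12.5 WT replicate 2). At E12.5 the scaling decides much: with TMM factors, which assume that most genes do not differ, the median of all 2491 genes moved from -0.59 to -0.01 on the log2 scale for KO minus WT and for E15.5 minus E12.5 in WT. Ezh2 had no interval in any library, so the deletion is not seen in these lists. Of 18 autosomal housekeeping genes none had an interval in all 12 libraries.

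Nkx2-2, Olig3, Mnx1, En1 and En2 were among the most densely marked genes of these lists. Counts per kb of interval averaged 233 ± 41.6 in En1, 229 ± 41.2 in Mnx1, 226 ± 40.8 in Olig3, 225 ± 57.0 in En2 and 214 ± 33.8 in Nkx2-2 (normalised count per kb, SD, n = 12), each above at least 95.9% of the 2491 genes, whose median was 29.1. The means of these 5 differed by less than their SD over libraries. Differences between genes within libraries were not tested, so no order is given. Nkx6-1 averaged 173 ± 22.3, Dbx1 138 ± 52.3 and Nkx6-2 119 ± 37.6, and of these Nkx6-1 and Dbx1, Dbx1 and Nkx6-2, and Nkx6-1 and En2 differed by less than the larger SD of the pair. Dbx2 had 47.6 ± 17.5 per kb, above 68.0% of the genes, and was the lowest of the 9 in all 12 libraries. Length followed another order: the intervals averaged 44.2 ± 15.2 kb at En2 and 40.6 ± 6.5 kb at En1, 28.8 to 29.6 kb at Mnx1, Nkx2-2 and Nkx6-1, 24.8 ± 7.2 kb at Dbx1, 18.3 ± 3.0 kb at Olig3, 15.0 ± 3.6 kb at Nkx6-2 and 14.3 ± 6.2 kb at Dbx2 (SD, n = 12). Across libraries the SD of log2 normalised counts ranged from 0.15 in Nkx6-1 to 0.35 in Nkx6-2 for 8 of the genes and was 0.48 in Dbx2, against a median of 0.49 over all genes.

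**Figure D2:**
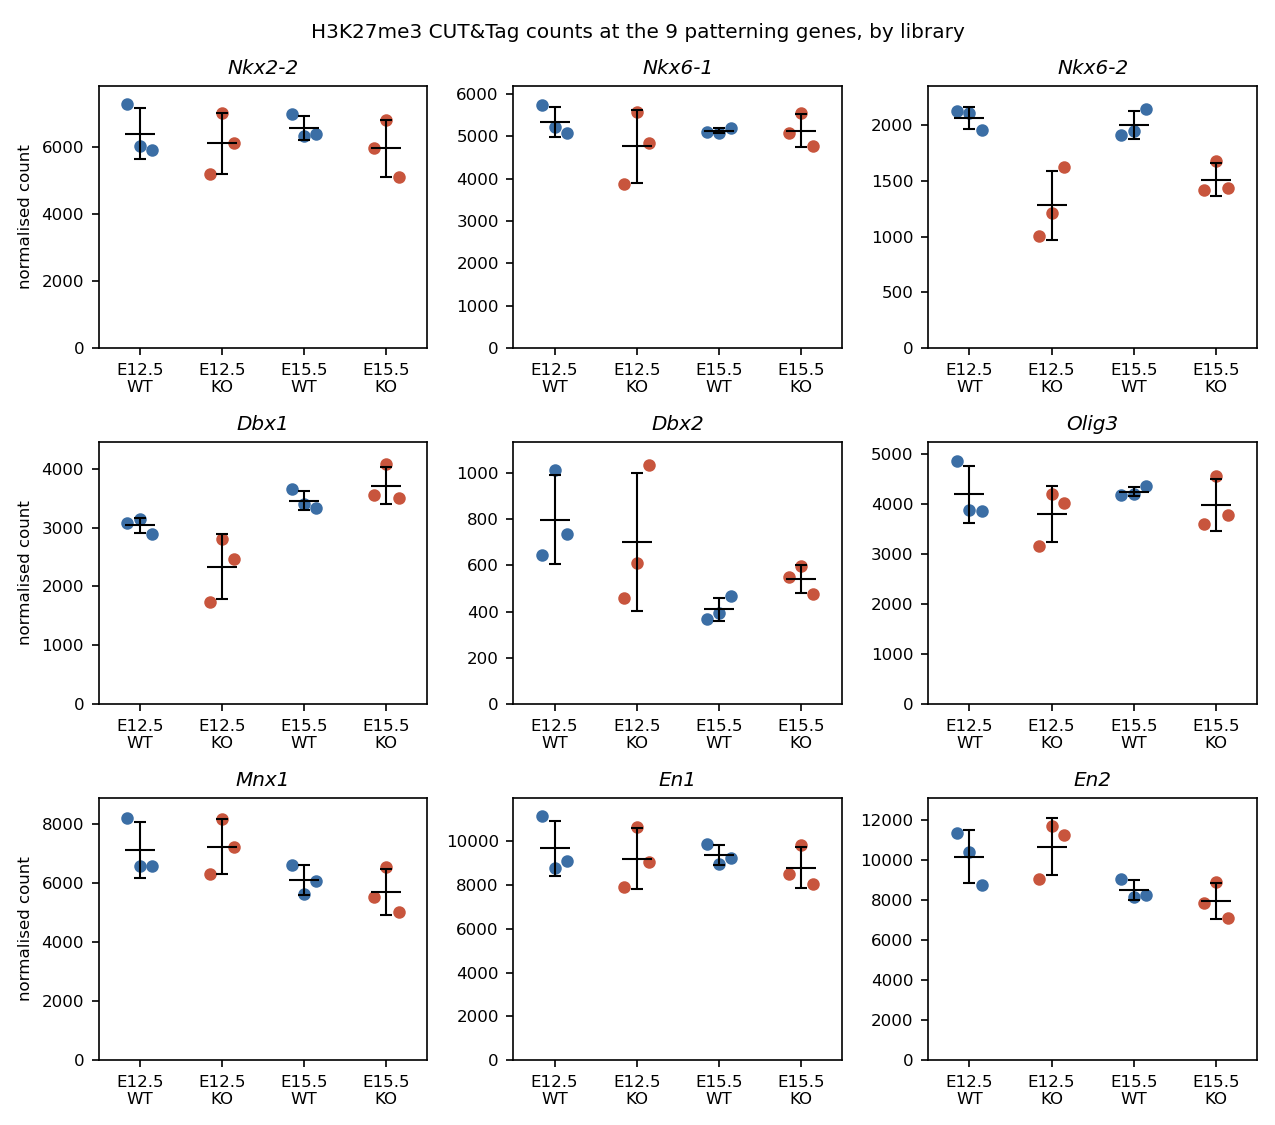
Normalised H3K27me3 count (count brought to the average library depth) at each gene by group; points are libraries (blue WT, red KO), bars the mean and SD of 3. KO points lie below WT points at both stages at Nkx6-2 alone, and E15.5 WT points lie below E12.5 WT points at Dbx2 alone; with TMM scaling the E12.5 change at Nkx6-2 shrinks to -0.15 (log2).

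Loss of Ezh2 was first compared at E12.5, to ask whether these genes lose the mark. Nkx6-2, a homeodomain repressor of ventral progenitors that also acts in oligodendrocytes, was the 1 gene of the 9 called lower by depth. Its normalised counts were 2132, 2109 and 1956 in the WT libraries and 1005, 1215 and 1622 in the KO libraries, so that every KO library was below every WT library. The log2 change was -0.69 ± 0.19 (SE), a fold of 0.62 (edgeR quasi-likelihood test with Benjamini-Hochberg adjustment over 2491 genes, adjusted p = 0.027). This is 1 of 9 genes beside a background of 26.1% of all genes called lower and 0.12% called higher (651 and 3 genes by depth, 66 and 39 with TMM factors), and the median change was -0.14 over the 9 and -0.59 over all genes. The Nkx6-2 call did not hold with TMM factors (-0.15, adjusted p = 0.52), nor without KO replicate 1 (-0.54, adjusted p = 0.068), KO replicate 2, WT replicate 2 or WT replicate 3 in edgeR. It was also lost with DESeq2 (-0.12, adjusted p = 0.66), with counts scaled to the gene window (-0.48, adjusted p = 0.15), without the filter on genes (adjusted p = 0.14) and in a fit of the 2 groups alone (adjusted p = 0.15). It held with merged regions (-0.69, edgeR adjusted p = 0.0036). Its interval also overlaps the end of Inpp5a, a phosphatase gene, in all 12 libraries, so the count belongs to both genes.

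The close relative Nkx6-1, which specifies motor neuron progenitors, had 5748, 5228 and 5072 normalised counts in WT and 3868, 5581 and 4847 in KO. These groups overlapped, with a log2 difference of -0.17 (95% interval -0.50 to 0.17) by depth and 0.39 with TMM factors. Dbx1, which marks the p0 progenitors and V0 interneurons at the middle of the cord, had 3082, 3145 and 2891 in WT and 1733, 2807 and 2474 in KO. Its KO libraries were all below the WT libraries, as were those of 35.7% of all genes. The difference of -0.38 (-0.77 to 0.01) did not pass the test (edgeR adjusted p = 0.10) and was 0.18 with TMM factors. Without KO replicate 1, which had the lowest value of the 6 libraries of its stage in 8 of the 9 genes, it was -0.20.

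The other 6 genes overlapped between genotypes at E12.5. Nkx2-2, which specifies V3 interneurons next to the floor plate, had 7252, 6011 and 5899 in WT and 5182, 7006 and 6110 in KO. Mnx1, the motor neuron determinant, had 8225, 6582 and 6577 in WT and 6321, 8191 and 7213 in KO. Olig3, a dorsal progenitor factor, had 4855, 3875 and 3847 in WT and 3159.7, 4205 and 4015 in KO. In these genes WT replicate 1 and KO replicate 2 were the high libraries and KO replicate 1 was lowest. En1 had 11143, 8804 and 9106 in WT and 7909, 10679 and 9050.0 in KO. En2 had 11345, 10415 and 8732 in WT and 9041, 11711 and 11261 in KO, the 1 gene besides Mnx1 with the higher mean in KO. With Dbx2, these genes had log2 differences from -0.19 to 0.07, with 95% intervals that reached from -0.77 at most to 0.40; with TMM factors all 6 differences were positive, from 0.36 to 0.63, and none was called.

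At E15.5, after 3 more days of development, none of the 9 genes was called, and none of 2491 genes was (0.0%), with 135 genes at an unadjusted edgeR p under 0.05 and 76 called by DESeq2. Nkx6-2 had 1913, 1953 and 2146 in WT and 1417, 1681 and 1436 in KO. Again all KO libraries were below all WT libraries, which held for 8.23% of genes, and the log2 difference was -0.41 (-0.81 to -0.0035; edgeR adjusted p = 0.91), or -0.42 with TMM factors. Dbx2, the partner of Dbx1 in progenitors of the intermediate cord, had 367, 394 and 466 in WT and 550, 595 and 476 in KO. Here all KO libraries were above all WT libraries, as in 11.4% of genes, with a difference of 0.40 (-0.19 to 0.99; edgeR adjusted p = 0.998). The 7 other genes differed by -0.14 to 0.10 with overlapping groups and 95% intervals between -0.49 and 0.49. Nkx6-1 had 5116, 5089 and 5202 in WT against 5074, 5551 and 4773 in KO. En1 had 9886, 8987 and 9234 in WT against 8512, 9841 and 8059.8 in KO. Olig3 had 4182, 4201 and 4353 in WT against 3597, 4564 and 3772 in KO. In these, as in all 9 genes, the SD of the KO libraries was larger than that of the WT libraries. KO replicate 3 was the lowest library of its stage in 5 of the 9 genes, and KO replicate 2 was the highest in 4.

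Whether the genotype difference itself changed between the stages was tested as an interaction, which called none of the 9 genes and 14 of 2491 genes (0.562%). By depth the largest values were 0.59 at Dbx2 (95% interval -0.24 to 1.42; edgeR adjusted p = 0.29) and 0.48 at Dbx1 (-0.07 to 1.03; adjusted p = 0.22). Under TMM scaling they came to 0.028 and -0.097, and the 9 values ran from -0.75 at En2 to that of Dbx2. The call at Nkx6-2 at E12.5 and its absence at E15.5 therefore do not show a difference between the stages (0.28, -0.29 to 0.85; edgeR adjusted p = 0.43; -0.27 with TMM factors).

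**Figure D3:**
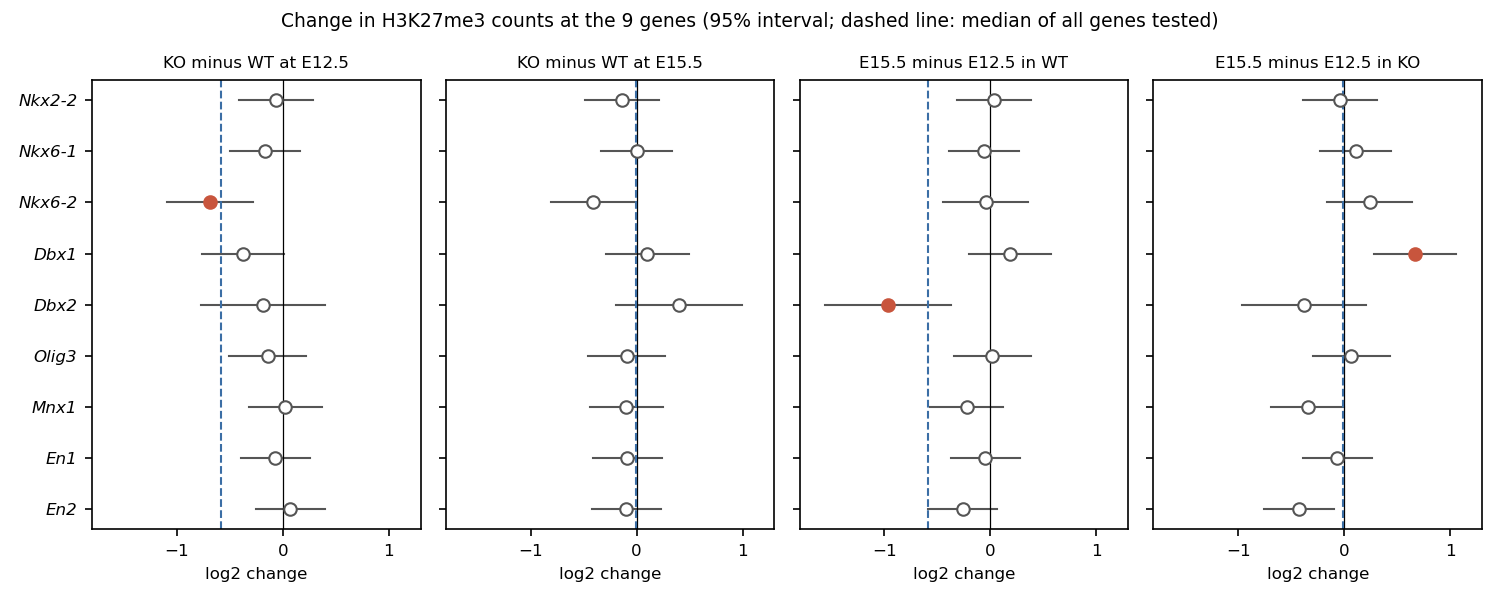
Log2 change of normalised H3K27me3 counts at the 9 genes with 95% intervals, by comparison; filled points passed the edgeR test at an adjusted p of 0.05, the dashed line is the median of all 2491 genes. Nkx6-2 (-0.69), Dbx2 (-0.96) and Dbx1 (0.67) are filled once each; TMM scaling turns most E12.5 KO minus WT values and most WT stage values positive.

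Between the stages Dbx2 was called in WT and Dbx1 in KO. The interaction, which is the same contrast, called neither gene by depth. A stage change particular to 1 genotype is therefore not shown. In WT, Dbx2 fell from 645, 1014 and 734 at E12.5 to 367, 394 and 466 at E15.5, with no overlap, which held for 53.6% of genes in this direction. The log2 change was -0.96 ± 0.28 (SE), a fold of 0.51 (edgeR, adjusted p = 0.016), and it was the 1 of 9 genes called, beside 38.7% of all genes called, 37.4% lower and 1.28% higher (931 and 32 genes by depth, 421 and 406 with TMM factors). It was -0.38 with TMM factors (adjusted p = 0.044), and the edgeR adjusted p was 0.073, 0.072 and 0.059 without E12.5 WT replicate 2, E15.5 WT replicate 1 and E15.5 WT replicate 2. The call was also lost with DESeq2 (-0.35, adjusted p = 0.056) and without the filter on genes (edgeR adjusted p = 0.064). The intervals at Dbx2 shortened with the count, from 12.4, 22.8 and 18.6 kb to 3.8, 9.2 and 8.4 kb. Depth was 0.117, 0.698 and 0.481 in these E12.5 libraries and 0.0751, 0.129 and 0.150 in the E15.5 ones, and its part in the shortening was not tested. In KO the Dbx2 counts went from 457, 612 and 1035 to 550, 595 and 476, overlapping groups with a log2 difference of -0.38 (-0.96 to 0.21).

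Dbx1 rose in KO, from 1733, 2807 and 2474 at E12.5 to 3564, 4087 and 3500.1 at E15.5, without overlap, as 12.8% of genes did in this direction. The change was 0.67 ± 0.18 (SE), a fold of 1.59 (edgeR, adjusted p = 0.038), the 1 call among the 9, beside 7.31% of all genes called and 4.34% called higher. This call was lost in several settings, among them those that changed the stretch counted. The part of interval length in the call was not tested. Dbx1 intervals measured 18.2, 33.4 and 32.6 kb in E15.5 KO. In E15.5 KO replicates 2 and 3, E12.5 WT replicates 2 and 3 and E12.5 KO replicate 2 they took in a neighbouring stretch that in the other libraries was separate, joined in part or not called. Counted over the same merged region in every library, the change was 0.08 (adjusted p = 0.80). That region spanned 115200 bp, against 16 to 35 kb for the Dbx1 intervals. It also took in separate intervals up to 90.6 kb before the gene start, so its counts are not those of Dbx1 alone. The Dbx1 call was also lost without each E15.5 KO library (edgeR adjusted p from 0.073 to 0.14) and with counts scaled to the gene window (adjusted p = 0.19). The same held without the filter (adjusted p = 0.11) and in a fit of 2 groups (adjusted p = 0.12). In WT the Dbx1 counts at E15.5, 3649, 3397 and 3339, were all above those at E12.5, as in 3.61% of genes, but the difference of 0.19 (-0.20 to 0.58) was not called by depth, was 0.74 with TMM factors (adjusted p = 0.007) and was -0.42 over the merged region (edgeR, adjusted p = 0.022). No direction with stage can therefore be given for Dbx1 in WT.

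En2 was lower at E15.5 in KO without passing the test. Its normalised counts were 9041, 11711 and 11261 at E12.5 and 7823, 8887 and 7103 at E15.5, with no overlap, as in 11.7% of genes in this direction, and a log2 difference of -0.43 (-0.75 to -0.10; edgeR adjusted p = 0.11). It did pass with merged regions (-0.40, edgeR adjusted p = 0.032) and without E12.5 KO replicate 1 (-0.53, adjusted p = 0.039). The merged region at En2 spanned 106200 bp, more than any single En2 interval. Mnx1 had 6321, 8191 and 7213 against 5521, 6545 and 5029.8 in KO, with overlap and a difference of -0.35 (-0.69 to -0.0011; edgeR adjusted p = 0.21). En2 intervals measured 38.2, 45.6 and 65.6 kb at E12.5 and 34.6, 42.8 and 32.8 kb at E15.5 in KO, and in E12.5 WT replicate 2 and KO replicate 3 they ran into Cnpy1, the neighbouring gene. With each interval's count scaled to its share inside the window, the En2 difference was -0.03. Nkx2-2, Nkx6-1, Nkx6-2, En1 and Olig3 differed by -0.06 to 0.04 between the stages in WT and by -0.07 to 0.24 in KO, all uncalled by depth. En2 and Mnx1 differed by -0.26 and -0.22 in WT, also uncalled. With TMM factors the WT values of these 7 genes ran from 0.28 to 0.57, and Nkx6-2 was called higher (0.50, edgeR adjusted p = 0.015), as was Dbx1.

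Because the 3 pairs of paralogues sit in the same libraries, the ratio of their counts is free of the library scaling factor, though not of how far the intervals run. These ratios were added after the counts had been seen, when Nkx6-2 was already known to separate the genotypes at both stages. Their p-values do not allow for that choice and give no independent support for the count results. Nkx6-2 over Nkx6-1 was 0.371, 0.403 and 0.386 in E12.5 WT and 0.260, 0.218 and 0.335 in E12.5 KO. At E15.5 it was 0.374, 0.384 and 0.413 in WT and 0.279, 0.303 and 0.301 in KO. All 6 KO libraries were thus below all 6 WT libraries, and the log2 difference of -0.47 (E12.5 -0.54, E15.5 -0.41), a fold of 0.72, had an exact two-sided permutation p of 0.005 within the stages, the smallest that 400 assignments allow (0.01 adjusted over 6 tests). With counts scaled to the gene window the exact permutation p was 0.01, and the genotypes then overlapped at E12.5 (0.532 in KO replicate 3, 0.477 in WT replicate 2). The ratio did not differ detectably between the stages (0.08, exact permutation p = 0.485). How many other genes separate the genotypes in this way over Nkx6-1 was not computed. By depth the KO minus WT change at E12.5 was -0.59 in the median gene and -0.17 at Nkx6-1. At E15.5 these were -0.0079 and -0.00084.

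Dbx2 over Dbx1 divided the stages instead. The ratio was 0.209, 0.322 and 0.254 in E12.5 WT, 0.264, 0.218 and 0.418 in E12.5 KO, 0.100, 0.116 and 0.140 in E15.5 WT and 0.154, 0.146 and 0.136 in E15.5 KO. Every E15.5 library was below every E12.5 library, by -1.06 on the log2 scale (KO -0.99, WT -1.13; exact permutation p = 0.005, the smallest possible, 0.01 adjusted over 6 tests), and the genotypes differed by 0.23 (exact permutation p = 0.21). With counts scaled to the gene window the stage difference was -1.30 (exact permutation p = 0.005), but E12.5 WT replicate 1 (0.335) was then below E15.5 KO replicates 2 and 3 (0.432 and 0.429). How many other genes separate the stages over Dbx1 with whole intervals was not computed. By depth the stage change in WT was -0.59 in the median gene and 0.19 at Dbx1. In KO these were -0.014 and 0.67. En2 over En1 was 1.02, 1.18 and 0.959 in E12.5 WT and 1.14, 1.10 and 1.24 in E12.5 KO, against 0.881 to 0.919 in the 6 E15.5 libraries. The stage difference of -0.29 (exact permutation p = 0.005) was 0.01 with counts scaled to the gene window (exact permutation p = 0.97). This ratio therefore changed with the stage only where whole intervals were counted.

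**Figure D4:**
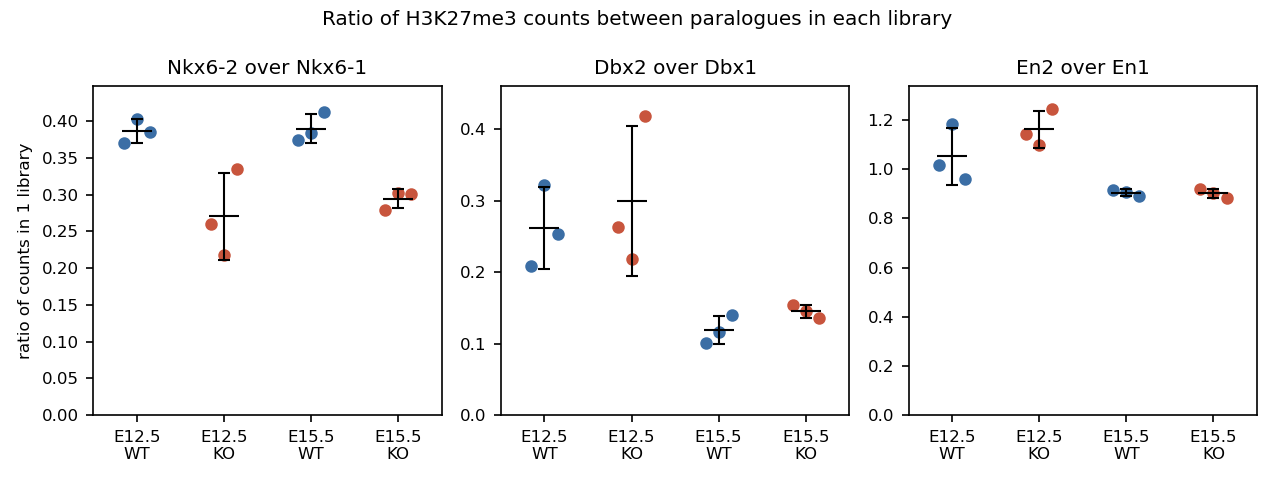
Ratio of raw H3K27me3 counts between paralogues in each library (blue WT, red KO; bars are the mean and SD of 3 libraries). With whole intervals counted, Nkx6-2 over Nkx6-1 is lower in every KO library than in every WT library. Dbx2 over Dbx1 is then lower in every E15.5 library than in every E12.5 library. With counts scaled to the gene window, Nkx6-2 over Nkx6-1 overlaps at E12.5 (0.532 in KO replicate 3, 0.477 in WT replicate 2). Dbx2 over Dbx1 then overlaps as well (0.335 in E12.5 WT replicate 1, 0.432 in E15.5 KO replicate 2). The share of all genes that separate in these ways was not computed.

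The bases covered inside the window told little about 7 of the genes, since it was full or nearly full in every library. By limma on log2 covered bases none of the 9 genes differed between the genotypes at either stage, against 8 of 2491 genes lower at E12.5 (0.321%) and none at E15.5 (0.0%). Unadjusted limma p-values under 0.05 numbered 275 at E12.5. Nkx6-2 intervals were 13.2, 24.2 and 15.0 kb in E12.5 WT and 13.0, 14.6 and 14.4 kb in E12.5 KO, so its lower count did not come with a lost interval. At Dbx2 the intervals of E15.5 were 3.8, 9.2 and 8.4 kb in WT and 12, 18.2 and 9.4 kb in KO, all longer in KO (log2 difference inside the window 0.90, limma adjusted p = 0.78). Depth differed in the same direction, 0.0751, 0.129 and 0.150 in these WT and 0.179, 0.216 and 0.346 in these KO libraries, and with log2 depth as a covariate the difference was 0.55 (limma adjusted p = 1.0).

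Other neural tube patterning genes were described in the same way, with no test against the 9. Of 55 such genes 54 had an interval in all 12 libraries, with a median of 168 normalised counts per kb against 214 for the 9 genes and 29.1 for all. At E12.5 edgeR called 3 of the 54 lower in KO (Lhx2, a LIM-homeodomain forebrain factor, -0.92; Neurog1, a proneural factor, -0.70; Pax8, a factor of the midbrain and hindbrain border, -0.61) and none higher, beside 26.1% and 0.12% of all genes, with a median of -0.21; with TMM factors none was lower and 1 was higher. At E15.5 and for the interaction none was called. From E12.5 to E15.5 in WT 6 fell, among them Gsx2 (-1.76), a lateral ganglionic eminence factor, Ptf1a (-1.49), Nkx6-3 (-0.83), Olig2 (-0.80) and Vsx1 (-0.79), and none rose, beside 37.4% and 1.28% of all genes; with TMM factors 2 fell and 22 rose. In KO Gsx2 fell (-2.03), while Pax8 (0.80) and Otx2 (0.79), the forebrain and midbrain selector, rose. Of all genes 2.97% were called lower and 4.34% higher in KO. With TMM factors 4 of the 54 fell and 6 rose. Of the 18 MGE and ventral telencephalon genes with an interval in every library, 2 fell and 2 rose at E12.5 in KO, beside 26.1% and 0.12% of all genes; with TMM factors 0 fell and 6 rose. Nkx2-1, the gene of the Cre driver, was higher in KO at E12.5 (1.21, edgeR adjusted p = 0.028, or 1.77 with TMM factors). It had 1026, 1623 and 1020 normalised counts in WT and 1697, 3345 and 3423 in KO. None of the 9 patterning genes was called higher there by depth or by TMM factors, and DESeq2 called En2 higher (0.66, adjusted p = 0.024). With TMM factors the 9 values ran from -0.15 to 0.63, with a median of 0.40.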

How the data were processed

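Bulk H3K27me3 CUT&Tag of mouse MGE was grouped by labelled stage and genotype. The 12 interval lists, 1 per library, are in GRCm38 (mm10), and the submitters' processing notes name cutadapt, Bowtie2, SAMtools, Picard, deepTools and SICER, while roles, versions and settings are not given in the sources used here. The count of reads per interval and the score of each interval were deposited by the authors without normalization. Starts lie on a 200 bp grid with gaps of at least 800 bp. In intervals of 1 window with a score under 1000 the score matched minus the natural log of a Poisson probability with a single mean for each library (largest misfit 0.0041, in E12.5 KO replicate 2). That mean, recovered from 4 to 846 intervals per library, was taken as the depth, on the assumption that it is proportional to total reads.

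Counts of intervals overlapping a gene body extended by 2500 bp (RefSeq gene table, GRCm38) were summed for genes with an interval in all 12 libraries, and intervals counted whole. They were fitted with edgeR 4.0.16 (quasi-likelihood, 4 groups, library size proportional to depth, Benjamini-Hochberg over 2491 genes, threshold 0.05), and log2 covered bases with limma 3.58.1 (eBayes with trend), in R 4.3.3, with tables made in Python 3.11.15 (pandas 2.3.3, scipy 1.17.1, numpy 2.4.6) and plots in matplotlib 3.10.9. The 95% intervals use the edgeR degrees of freedom. Paralogue ratios were tested by exact permutation within strata. A gene without a called interval has no count, so losses of whole intervals are outside the count test.

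Alternatives were TMM factors, DESeq2 1.42.0, no filter, merged regions, counts apportioned to the gene window, fits of 2 groups, the replicate block and leaving out each library. On simulated counts of 2491 genes with 200 changed 2-fold, edgeR recovered 26.5% at E12.5 with 5 false calls and 12.5% at E15.5 with 0. The changed genes went up and down in equal number, and the rest did not change. The figures therefore do not describe the E12.5 data, where the median log2 change of all genes by depth was -0.59 for KO minus WT. The members and gene lists were chosen with earlier results of these data known. Named genes are the 9 members, genes sharing an interval with them, called genes of the patterning list (up to 5 per comparison and direction) and Nkx2-1; Ezh2 was added as a check. 1 further check is not reported here. The labels call the libraries biological replicates.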

Additional observations from a re-analysis of the deposited data

How the results depend on the processing

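Counts of members called moved with the setting and with single libraries. At E12.5 the 1 gene called in KO against WT became 0 with apportioned counts, without the filter, with only the 2 groups compared and with TMM factors, and 0 to 2 on leaving out each library (Dbx2 beside Nkx6-2 without KO replicate 3, -0.58). DESeq2 also called 1, but En2 higher in place of Nkx6-2 lower. None was called at E15.5 in any setting, and 0 to 1 for the interaction (Dbx2, without E12.5 KO replicate 3). For E15.5 minus E12.5 in WT the 1 gene became 5 with DESeq2 (Nkx2-2, Nkx6-1, Nkx6-2, Dbx1 and Olig3 higher, without Dbx2), 2 with merged regions (Dbx1 and Dbx2 lower), 0 without the filter, 3 with TMM factors (Nkx6-2 and Dbx1 higher, Dbx2 lower) and 0 to 1 on leaving out each library. In KO the 1 gene became 0 with apportioned counts, without the filter and with 2 groups, and 0 to 2 on leaving out each library; merged regions called En2 lower in place of Dbx1 higher.

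Over all genes the 654 calls at E12.5 became 332 with apportioned counts, 205 with DESeq2 (123 lower, 82 higher), 105 with TMM factors, 127 with 2 groups, 76 without the filter and 951 with merged regions. They were 105, 60 and 1613 without KO replicates 1, 2 and 3, and 1125, 72 and 181 without WT replicates 1, 2 and 3. At E15.5 the 0 calls became 76 with DESeq2, 39 with merged regions, 24 with TMM factors, 13 with 2 groups, 5 without the filter, 1 with apportioned counts and 0 to 2 on leaving out each library. The 14 interaction calls became 147 with merged regions, 43 with DESeq2, 29 with apportioned counts, 6 with TMM factors and 0 to 959 on leaving out each library (959 without E12.5 KO replicate 3). Stage calls in WT went from 963 to 540 without the filter and to 1130 with merged regions, with 433 lower and 460 higher in DESeq2. In KO they went from 182 (74 lower, 108 higher) to 689 with DESeq2, 574 with TMM factors, 433 with merged regions and 289 with 2 groups (165 lower, 124 higher). Leaving out each library gave 497 to 1154 in WT and 94 to 313 in KO. For covered bases at E12.5 the 8 calls became 5 with depth as a covariate, 14 for whole intervals with that covariate and 0 to 120 on leaving out each library (120 without WT replicate 1).

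Log2 values that changed sign with TMM factors, with DESeq2 second, were at E12.5 Nkx2-2 (0.49 and 0.52), Nkx6-1 (0.39 and 0.42), Dbx1 (0.18 and 0.21), Dbx2 (0.36 and 0.38), En1 (0.49 and 0.51) and Olig3 (0.40 and 0.43). For the interaction, Nkx6-2 (-0.27 and -0.30) and Dbx1 (-0.097 and -0.13) changed sign, as did Nkx6-1 (-0.41) and Olig3 (-0.51) with TMM factors; over all 18 alternatives Nkx2-2, Nkx6-1, En1 and Olig3, none of them called, changed sign in 2, 2, 6 and 6. For the stages they were in WT Nkx6-1 (0.48 and 0.51), Nkx6-2 (0.50 and 0.54), En1 (0.48 and 0.52), En2 (0.28 and 0.32) and Mnx1 (0.31 and 0.34). With apportioned counts they were Nkx2-2 (0.10) and En1 (0.091) at E12.5, Nkx6-1 (0.0040) and Dbx1 (-0.47) at E15.5, and Dbx1 for the interaction (-0.061). For the stages they were then Nkx6-1 (0.023), Nkx6-2 (0.10), En1 (0.41), En2 (0.35) and Mnx1 (0.014) in WT, and En2 over En1 (0.010). Merged regions turned Nkx6-1 at E15.5 (0.0020), and Dbx1 (-0.42) and Olig3 (-0.00060) for the stages in WT. The cause was not tested.

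On leaving out each library, values that crossed 0 ranged at E12.5 from -0.18 to 0.038 (Nkx2-2), -0.58 to 0.043 (Dbx2), -0.19 to 0.041 (En1), -0.028 to 0.18 (En2) and -0.075 to 0.14 (Mnx1), and at E15.5 from -0.061 to 0.049 (Nkx6-1). For the stages they ranged in WT from -0.018 to 0.14 (Nkx2-2), -0.11 to 0.065 (En1) and -0.040 to 0.14 (Olig3). In KO they ranged from -0.14 to 0.074 (Nkx2-2), -0.023 to 0.24 (Nkx6-1), -0.61 to 0.015 (Dbx2), -0.16 to 0.054 (En1) and -0.047 to 0.15 (Olig3). The ratios kept their sign and their side of the threshold on leaving out each library. Nkx6-2 over Nkx6-1 ran from -0.55 to -0.40 between the genotypes, and Dbx2 over Dbx1 from -1.16 to -0.93 between the stages. In both, and in En2 over En1 between the stages, the groups compared did not overlap with whole intervals. Leaving out 1 library could then not change the outcome, so it adds no support.

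Libraries of the same number had correlations of their deviations over genes of 0.227, 0.020 and 0.168 at E12.5 and -0.223, -0.202 and -0.352 at E15.5, so the numbers were not taken to pair them. With a replicate block the 3 member calls were kept (Nkx6-2 -0.72, edgeR adjusted p = 0.040; Dbx2 adjusted p = 0.014; Dbx1 adjusted p = 0.044). Over all genes it gave 8 calls at E15.5, 52 for the interaction and 0 for covered bases at E12.5. Low counts, as at Dbx2, and 3 libraries a group limit what these tests can detect.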
